A study of Mus musculus with 39 samples.

Results

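The RNAs described here encode the SLC25 family, the carriers that move metabolites across the inner mitochondrial membrane. They were chosen by gene symbol, as the rows named Slc25a with a number and the rows Ucp2, Mtch1 and Mtch2 in the tables of both gradients. This gave 44 of the 13230 genes present in both tables, of which 41 had a mean TPM of at least 1 and were tested, among 11754 genes in all. RNA came from fractions of 10–50% sucrose gradients, onto which liver homogenate of wild-type FVB female mice had been layered. The livers were broken up with beads, no detergent was added, and nuclei were spun out beforehand. All libraries share this genotype, strain, sex and tissue, there was no treatment, and neither the age of the mice nor the number of livers per gradient is given in the sources used here. The 2 independent gradients are the replicates. They gave 17 libraries (fractions 4 to 19 and 21) in gradient 1 and 22 libraries (fractions 3 to 24) in gradient 2. A higher fraction number means denser sucrose, and the question the design asks is where along the gradient each RNA sediments.

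Carriers of this family are encoded in the nucleus, made on cytosolic ribosomes and inserted into the inner membrane by the TIM22 complex, mostly without a cleaved presequence. Most are built of repeats that each carry a signature motif, and they exchange ADP for ATP, citrate for malate, ornithine for citrulline and other pairs of substrates. In liver they serve oxidative phosphorylation, the urea cycle, fatty acid oxidation and lipid synthesis. A few members sit elsewhere, in the outer mitochondrial membrane or in the peroxisome.

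The signature was searched for in the translated coding sequence of each member's longest RefSeq-linked transcript in GENCODE, as a proline, an acidic residue 2 positions later and a basic residue 3 positions after that. It occurred 3 times in 25 of the 44 members, 2 times in 9 and 1 time in 5. The 5 members with none were Mtch1, Mtch2, Slc25a46, Slc25a51 and Slc25a53. The coding bases of the first signature are shown for 3 pairs of related carriers, because these stretches are alike within a pair while the RNAs of the pair differed in level or in where they sedimented. Capitals mark the 6 codons of the signature, 5′ to 3′ on the coding strand, with 2 codons on either side.
Slc25a5 (ADP/ATP carrier 2): gtagcaCCCATCGAGAGGGTCAAGctgctg
Slc25a4 (ADP/ATP carrier 1): gtcgccCCGATCGAGAGGGTCAAActgctg
Slc25a23 (ATP-Mg/phosphate carrier): acagctCCTCTGGACCGACTCAAGgtattc
Slc25a25 (ATP-Mg/phosphate carrier): actgccCCCCTGGACAGACTGAAGgtgctc
Slc25a28 (mitoferrin 2): atgtacCCGATCGACTGCGTCAAGacccgg
Slc25a37 (mitoferrin 1): atgtacCCGGTGGACTCCGTGAAGacacgg

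In GRCm38, the same assembly as mm10, the first 4 of these stretches are coding bases at chrX:36795806-36795835 on the plus strand (Slc25a5), chr8:46210818-46210847 on the minus strand (Slc25a4), chr17:57053790-57053819 on the minus strand (Slc25a23) and chr2:32419054-32419083 on the minus strand (Slc25a25), each within 1 coding exon. Those of Slc25a28 (chr19, minus strand) and Slc25a37 (chr14, minus strand) span a splice junction. Of the 30 bases shown, 26 were identical in Slc25a4 and Slc25a5, 23 in Slc25a23 and Slc25a25, and 25 in Slc25a28 and Slc25a37. Over the whole coding sequence of 894 bases, Slc25a4 and Slc25a5 were identical at 77.4% of bases and at 267 of 298 residues, yet their transcripts had no stretch of 31 bases in common. The same was true of each of the 7 pairs of related members compared later, so a read of that length matched in full cannot have been shared between the members of a pair. Slc25a5 shared 67.1% of its stretches of 31 bases with other genes in GENCODE, chiefly Gm5560, but with none of the genes in the deposited tables, and its level is uncertain to the extent that reads were assigned to such copies. Over 5% of the stretches were shared with any other gene for 15 members, and with a gene in the tables for 3 members, namely Slc25a25 (8.48%, with Naif1), Slc25a21 (6.25%, with Pax9) and Slc25a26 (6.03%, with Lrig1).

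Levels are in TPM (transcripts per 1e+06 transcripts of a library, after division by length), so a level is relative to the other RNAs of its own fraction, and the amount of RNA in a fraction cannot be read from it. TPM also hides the sequencing depth, which leaves the 2 gradients as the measure of precision. Totals per library ran from 998099 to 999202 TPM. The libraries of the same fraction in the 2 gradients correlated with R between 0.932 (fraction 21) and 0.968 (median 0.962), and 14 of the 17 libraries of gradient 1 were most like a library of gradient 2 within 1 fraction of their own. The exceptions were fractions 18, 19 and 21 of gradient 1, which were most like fractions 15, 16 and 16 of gradient 2. The light fractions held much Rpph1, the RNA of RNase P, which took 25% of TPM in fraction 4 of gradient 1 and 13.4% in fraction 4 of gradient 2, against 0.528% and 0.921% in fraction 7. Hepatocyte markers (7 of 8 listed genes measured) had a summed TPM between 7138 and 52604, highest in fraction 5 of both gradients, while the cholangiocyte list (4 of 5 measured) never passed a summed 9.43 TPM. Most of the hepatocyte sum in the light zone was Alb (albumin), with means of 31530 and 18980 TPM there against 2909 and 5118 in the dense zone. Cyp2e1 (3941 to 423 and 4575 to 1409 TPM), Apob (1323 to 75.8 and 1329 to 120) and Fgb (1100 to 193 and 746.5 to 410) were lower in the dense zone as well. Only Cps1 lay the other way in both gradients, from 759 to 3284 and from 1283 to 5515 TPM. Ttr and Apoa1 fell in gradient 1 (1850 to 1503 and 2187 to 892 TPM) and rose in gradient 2 (1423 to 3310 and 1828 to 2786 TPM). The sums for sinusoidal endothelial cells (6 of 6 measured, at most 96.2 and 71.9 TPM in gradients 1 and 2) and stellate cells (5 of 6 measured, at most 131 and 142 TPM) were highest in fraction 4 or 5 as well.

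The 44 carrier RNAs together made up between 0.378% (fraction 4) and 0.647% (fraction 8) of TPM in gradient 1, and between 0.283% (fraction 3) and 0.622% (fraction 8) in gradient 2. Averaged over the 24 libraries of the zones defined below, 14 members had at least 100 TPM, 18 lay between 10 and 100, 9 between 1 and 10, and 3 (Slc25a2, Slc25a35 and Slc25a53) under 1. The 5 most abundant members gave 53.3% of the summed level and the 8 most abundant 72.2%. By mean TPM over all fractions of gradient 1 and gradient 2, these were Slc25a5 (763 and 981), Slc25a47 (902 and 601), Slc25a39 (534 and 481), Slc25a3 (481 and 438), Slc25a23 (363 and 328), Slc25a15 (366 and 330), Slc25a1 (395 and 311) and Slc25a13 (319 and 277). These means cover 17 fractions of gradient 1 and 22 of gradient 2, so they are not alike in range. Over the 17 shared fractions, the ratio of gradient 2 to gradient 1 was 1.07, 0.69, 1.04, 0.94, 1.08, 1.00, 0.88 and 0.86 in the same order. Slc25a5 and Slc25a47 changed places between the gradients, and Slc25a1 ranked above Slc25a15 and Slc25a23 in gradient 1 and under them in gradient 2, so the order among these neighbors is not beyond the spread between gradients. In bulk RNA, fewer cells of a type and less RNA per cell cannot be told apart as the source of such a difference between gradients. The levels ranked Slc25a5, the ADP/ATP carrier found in many tissues, far above its heart and muscle relative Slc25a4 (10.1 and 7.62 TPM), and the liver form of the aspartate/glutamate carrier, Slc25a13, above Slc25a12 (16.3 and 17.3 TPM). Slc25a18 and Slc25a27 were listed in the table of gradient 1 only, with a median of 0.210 and 0.297 TPM, and are not among the 44.

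To describe where an RNA sedimented, its center was computed as the mean fraction number weighted by TPM over the 17 fractions found in both gradients. Centers of the 41 tested members ran from 7.79 (Slc25a23) to 14.8 (Slc25a5) in gradient 1 and from 7.79 to 15.2 (the same genes) in gradient 2. Their medians, 11.4 and 11.3, were close to those of all genes tested, 11.3 in both gradients. The profiles were repeatable: the correlation between gradients over the 17 shared fractions had a median R of 0.925 over the 41 members, against 0.899 over all genes tested, and it ranged from -0.23 (Slc25a24, near 1 TPM) to 0.999 (Slc25a23). Among the 32 members with a mean TPM of at least 10, R was over 0.9 for 22 (median 0.952). Of all 7233 genes at that level, it was over 0.9 for 4653 (median 0.935), a similar share. These correlations carry no p, because adjacent fractions share material.

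**Figure D1:**
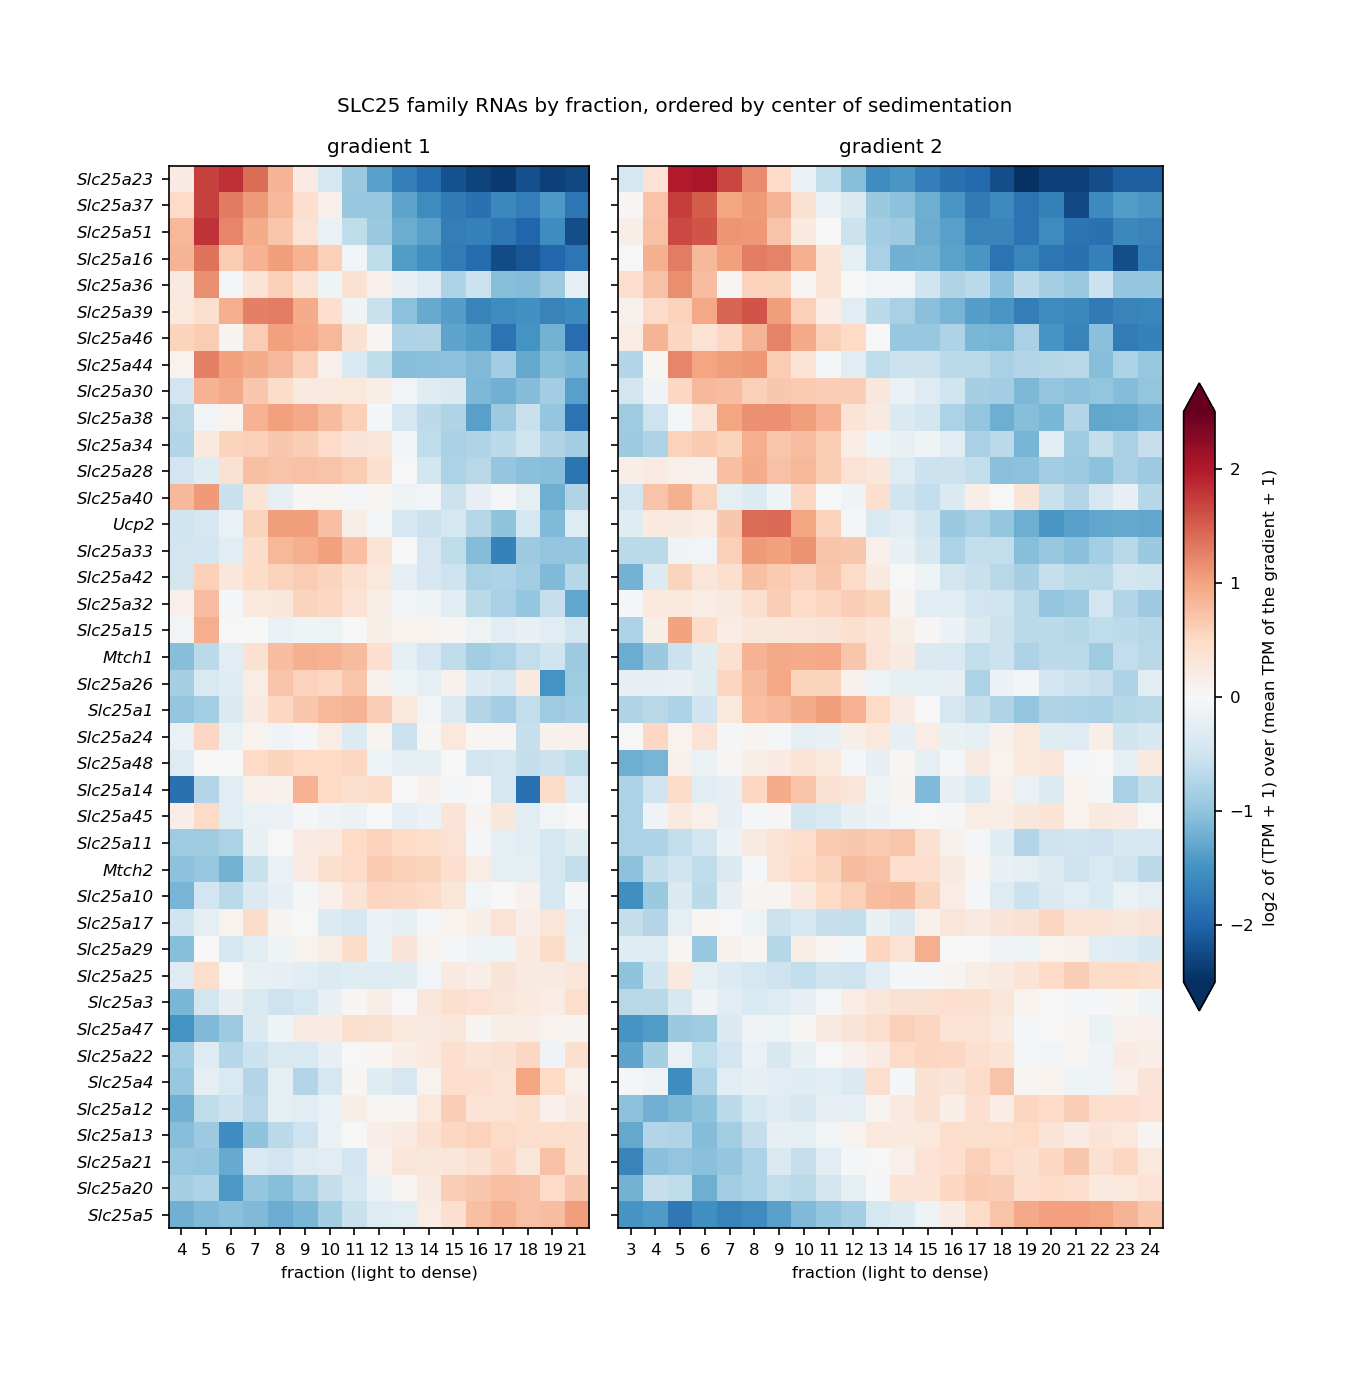
Level of 40 of the 41 tested SLC25 family RNAs (rows, ordered by center of sedimentation) in each fraction (columns, light to dense) of gradient 1 and gradient 2, as log2 of (TPM + 1) over (mean TPM of the gradient + 1). Rows at the top, from Slc25a23 down, are high in fractions 5 to 8, rows in the center, such as Mtch1 and Slc25a1, are high in fractions 8 to 12, and rows at the bottom, up from Slc25a5, are high from fraction 15 on.

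By zone mean, the highest zone was the same in both gradients for 39 of the 44 members: the light zone (fractions 4 to 7) for 13, the middle zone (fractions 10 to 13) for 16 and the dense zone (fractions 16 to 19) for 10. The remaining 5 (Slc25a30, Slc25a32, Slc25a35, Slc25a45 and Slc25a48) differed between gradients. The 3 members under 1 TPM are counted here but were not tested. Among the 41 tested members the zone was the same for 37 (90.2%), with 26.8% highest in the light, 39% in the middle and 24.4% in the dense zone, beside 88.2%, 42.7%, 24.4% and 21.2% of the 11754 genes tested. Over all 820 pairs of tested members the median pairwise R was 0.218 in gradient 2, with 43.4% of pairs below 0 and 5.61% over 0.9, beside a median of 0.117, 43.9% below 0 and 2.86% over 0.9 for pairs of all genes tested. In gradient 1 the median was 0.0829 for the members and 0.0665 for all genes. The most alike pair in gradient 2 was Slc25a37 and Slc25a51 (R = 0.995, and 0.987 in gradient 1), an iron carrier and a NAD carrier. Other close pairs were Mtch1 with Slc25a1 (0.977 and 0.946), Slc25a23 with Slc25a51 (0.970 and 0.942) and Slc25a12 with Slc25a21 (0.959 and 0.788).

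**Figure D2:**
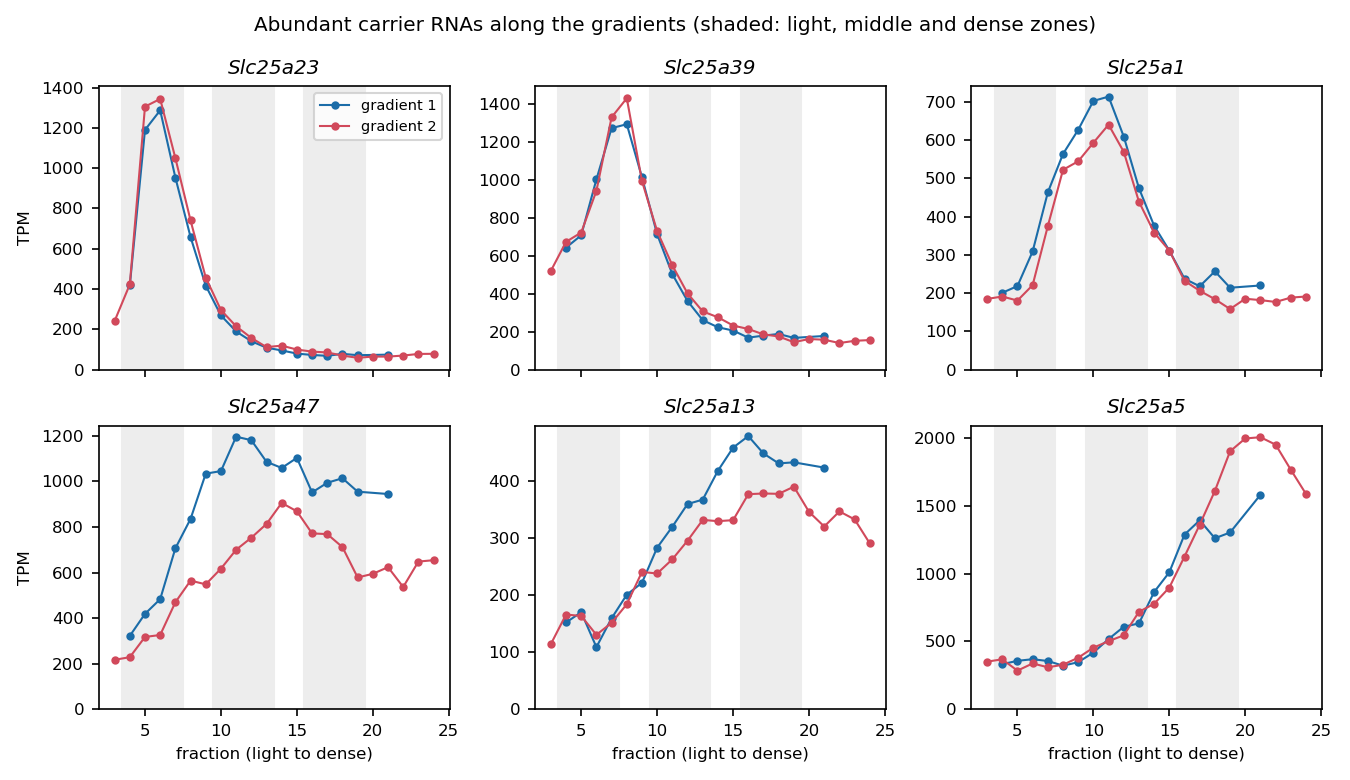
TPM of 6 abundant carrier RNAs (panels) by fraction from light to dense, with 1 line per gradient and the light, middle and dense zones shaded. Slc25a23 is highest in fraction 6 and Slc25a39 in fraction 8 of both gradients, Slc25a1 in fraction 11, and Slc25a5 rises to fraction 21 in both gradients; Slc25a47 is higher in gradient 1 in each shared fraction.

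To compare the zones, log2(TPM + 1) was averaged over the 4 fractions of a zone within each gradient and fitted with limma over all 11754 genes, with the 2 gradients as replicates (n = 2 per zone) and Benjamini-Hochberg adjustment over all genes. A difference on this scale understates the change of RNAs at low TPM. From the light to the dense zone, 9 of the 41 members rose (22.0%) and 14 fell (34.1%), while the other 18 did not pass. The background was 22.3% called higher and 39.6% called lower among all genes, near the members' shares. From the light to the middle zone, 11 members rose (26.8%, background 23.5%) and 6 fell (14.6%, background 24.1%). From the middle to the dense zone, 3 rose (7.32%, background 4.79%) and 15 fell (36.6%, background 22.5%).

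The median difference of the members was -0.26 from light to dense, 0.29 from light to middle and -0.69 from middle to dense, beside medians over all genes of -0.43, 0.05 and -0.28. The members' median minus that of all genes was 0.17, 0.25 and -0.41. Quantile normalization, which gives every library the same distribution, moved the median of all genes to -0.05, 0.08 and 0.04. It moved the members' medians to 0.03, 0.18 and -0.48, so the sign of the light to dense median depends on the scaling. Under it no called member changed direction. It left 9 members higher and 13 lower from light to dense (30.7% and 29.9% of all genes), 10 and 8 from light to middle (26.9% and 24.2%), and 5 and 11 from middle to dense (10.3% and 13.7%). With the gradient entered as a block, since its fractions were spun together, the counts became 15 higher and 19 lower (light to dense), 19 higher and 8 lower (light to middle), and 8 higher and 25 lower (middle to dense). The shares of all genes rose as well, to 30.5% higher and 50% lower, 37.2% higher and 35% lower, and 14.1% higher and 39.3% lower. In these 3 comparisons the block added 11, 10 and 15 calls and removed none.

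**Figure D3:**
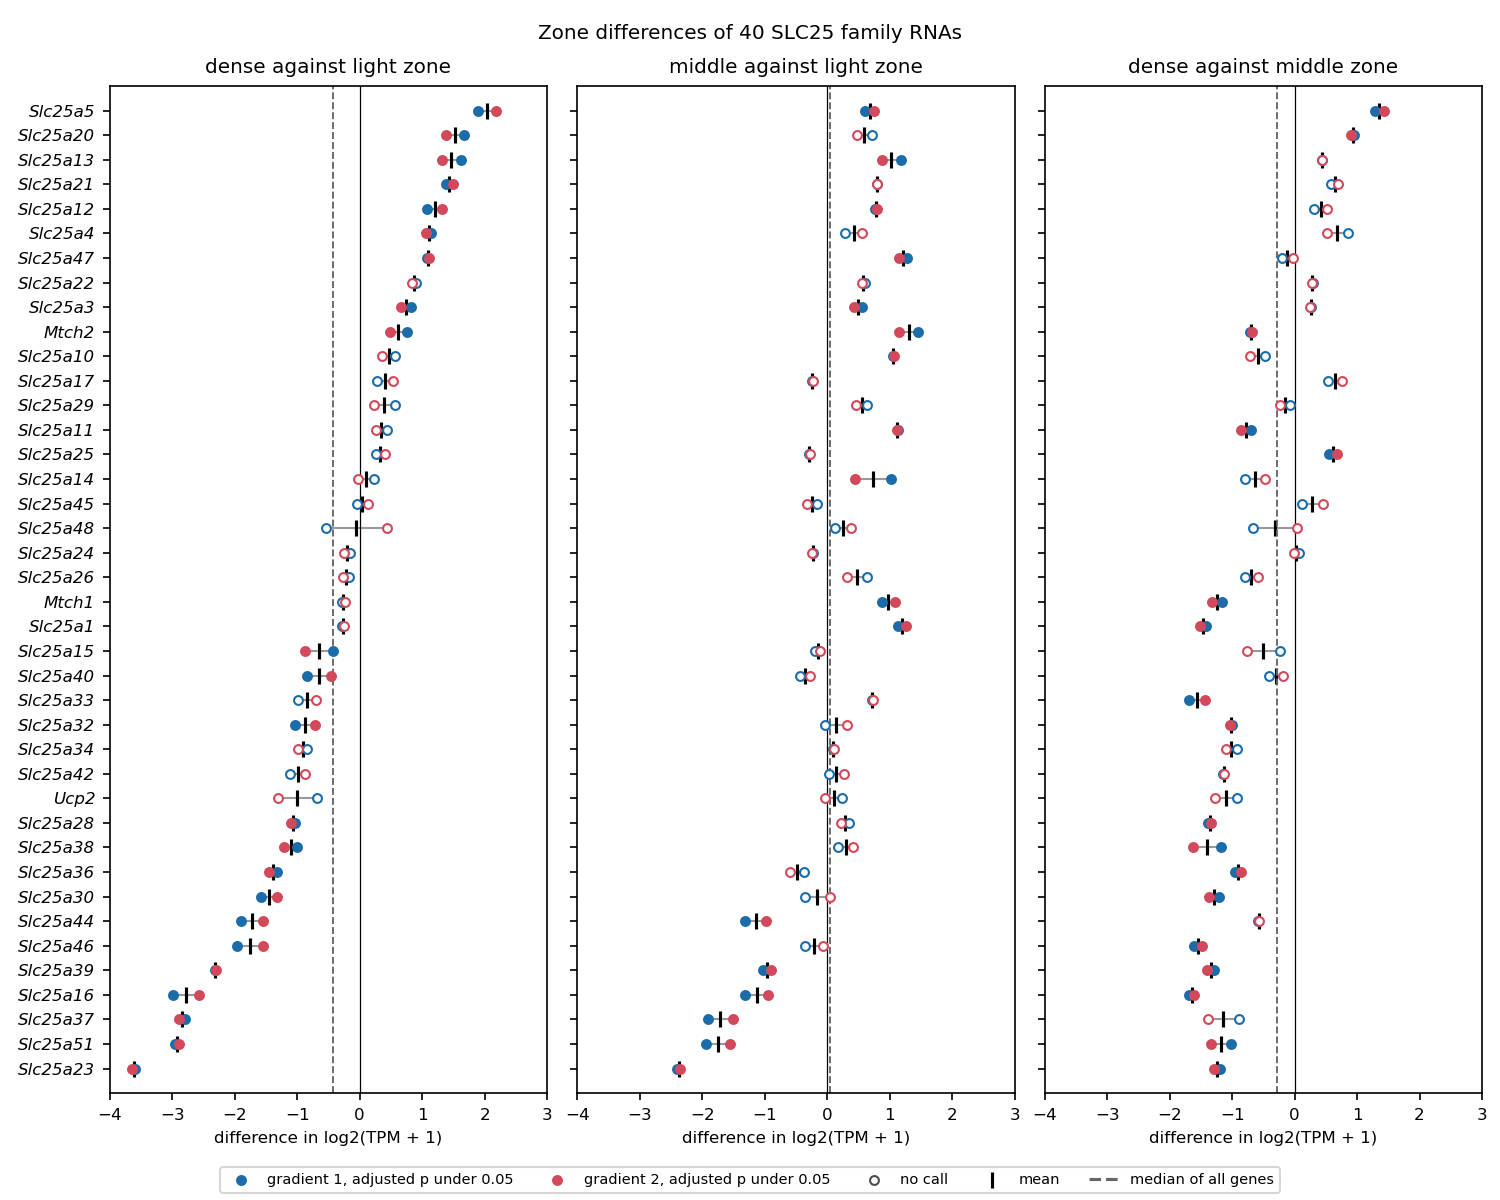
Difference in log2(TPM + 1) between zones for 40 of the 41 members (rows), with 1 point per gradient, a bar at their mean, filled points where the adjusted p was under 0.05 and a dashed line at the median of all genes. The 2 gradients lie close together for most members, 37, 37 and 38 of the 40 have the same sign in both gradients in the left, middle and right panel, and members lie on both sides of 0 in each.

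Of the carriers that serve oxidative phosphorylation, all 3 measured (Slc25a3, Slc25a4 and Slc25a5) rose from the light to the dense zone, against 22.3% of all genes (2 of 3 under quantile normalization, against 30.7%). Slc25a5, which exchanges cytosolic ADP for ATP, ran from 321 (fraction 8) to 1583 TPM (fraction 21) in gradient 1, with a median of 608, and from 284 (fraction 5) to 2008 TPM (fraction 21) in gradient 2, with a median of 748. Its 8 light libraries (284 to 368.5 TPM), 8 middle libraries (417 to 718) and 8 dense libraries (1127 to 1904) did not overlap. The level was 4.11-fold higher in the dense than in the light zone on the log2(TPM + 1) scale (log2 difference 2.04 ± 0.16 (SE), adjusted p = 0.000391) and was also higher in the dense than in the middle zone (1.36 ± 0.16, adjusted p = 0.00702). These were the largest rises among the members in both gradients, except that under quantile normalization Slc25a21 rose more from light to dense (1.92 against 1.68). The light to middle difference (0.68 ± 0.16, adjusted p = 0.0172) did not pass under quantile normalization (0.23, adjusted p = 0.269).

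Slc25a3, the phosphate carrier, had a flatter profile, from 218 to 649 TPM in gradient 1 and from 271 to 587 TPM in gradient 2. Its dense libraries (466 to 617 TPM) lay above its light ones (218 to 416). The difference was 0.74 ± 0.15 (SE, adjusted p = 0.00699), and 0.30 with an adjusted p of 0.118 under quantile normalization. Slc25a4, the ADP/ATP carrier of heart and muscle, was low here, from 4.71 to 20.8 TPM in gradient 1 and from 1.93 to 13.1 TPM in gradient 2, with its highest value in fraction 18 of both gradients. It rose by 1.10 ± 0.28 (SE, adjusted p = 0.0170), although its dense (7.92 to 20.8 TPM) and light libraries (1.93 to 8.34) overlapped.

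The 3 measured carriers of ATP-Mg and phosphate, which set the adenine nucleotide content of the matrix, went separate ways. Slc25a23 had the sharpest profile of all members over 1 TPM in gradient 2, with a peak at fraction 6 in both gradients (1287 and 1343 TPM) at 3.55 and 4.10 times its mean. It ran from 68.0 TPM (median 141) in gradient 1 and from 58.2 TPM (median 115) in gradient 2. Its light libraries held 417 to 1343 TPM, its middle ones 109 to 295 and its dense ones 58.2 to 89.0, with no overlap. The fall from light to dense was the largest of any member (-3.62 ± 0.15, SE, adjusted p = 0.000301), with -3.59 in gradient 1 and -3.64 in gradient 2, and it held from light to middle (-2.38 ± 0.15, adjusted p = 0.00110) and from middle to dense (-1.24 ± 0.15, adjusted p = 0.00702).

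Slc25a25 had a shallow valley: 76.1 to 138 TPM in the light, 70.2 to 88.2 in the middle and 112 to 136 in the dense zone. It was higher in the dense than in the middle zone (0.62 ± 0.15, SE, adjusted p = 0.0289), a call lost when gradient 2 was shifted by 1 fraction either way, and the light to dense difference of 0.33 did not pass (adjusted p = 0.0933) but did with the gradient block (0.0239). Slc25a24 lay near 1 TPM and passed in no comparison.

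Of the carriers of aspartate and glutamate, Slc25a12 and Slc25a13 rose from light to dense, against 22.3% of all genes, and Slc25a22 did not pass. Slc25a13 (citrin), which supplies aspartate to the urea cycle in liver, ran from 108.5 (fraction 6) to 478 TPM (fraction 16) in gradient 1 and from 114 (fraction 3) to 390 TPM (fraction 19) in gradient 2. Its light (108.5 to 170 TPM), middle (237 to 367) and dense libraries (376 to 478) did not overlap, and it rose by 1.03 ± 0.17 (SE, adjusted p = 0.00560) to the middle and by 1.47 ± 0.17 (adjusted p = 0.00108) to the dense zone. Slc25a12 (aralar), its brain and muscle relative, had the same zones in order at a lower level, 6.55 to 10.9, 12.9 to 18.1 and 18.0 to 25.6 TPM, and rose by 1.21 ± 0.18 (SE, adjusted p = 0.00253) from light to dense. Slc25a22, a glutamate carrier, had a higher mean in gradient 1 than in gradient 2 (208 and 113 TPM). Its light to dense difference was 0.90 in gradient 1 and 0.83 in gradient 2 (adjusted p = 0.140, and 0.000604 with the block).

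The carriers of di- and tricarboxylates were highest in the middle of the gradient, apart from Slc25a21. From light to middle 3 of 4 rose and none fell, against 23.5% higher and 24.1% lower over all genes. Slc25a1, which exports citrate for fatty acid and sterol synthesis, ran from 201 (fraction 4) to 714 TPM in gradient 1 and from 158 (fraction 19) to 640 TPM in gradient 2, with its highest value in fraction 11 both times. It rose by 1.20 ± 0.19 (SE, adjusted p = 0.00451) from light to middle and fell by 1.47 ± 0.19 (adjusted p = 0.00714) from middle to dense. The light and dense zones did not differ past the threshold (-0.27, adjusted p = 0.244, and 0.0503 with the block), but did under quantile normalization (-0.67, adjusted p = 0.0211).

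Slc25a11, the oxoglutarate carrier of the malate-aspartate shuttle, followed with a later peak, in fraction 12 (201 TPM) of gradient 1 and fraction 14 (201 TPM) of gradient 2. Its 8 middle libraries (160 to 201 TPM) lay above all light (72.2 to 118.5) and all dense ones (74.0 to 133). Slc25a10, the dicarboxylate carrier, peaked in the same fractions (225 and 218 TPM) and rose by 1.06 ± 0.20 (SE, adjusted p = 0.00851) from light to middle, while its middle to dense difference of -0.59 did not pass (adjusted p = 0.0781) but did with the block (adjusted p = 0.00733). Slc25a21, the oxodicarboxylate carrier of lysine and tryptophan breakdown, was highest in the dense zone instead, with 3.04 to 7.68 TPM in the light and 10.9 to 24.8 TPM in the dense zone, a rise of 1.43 ± 0.41 (SE, adjusted p = 0.0259).

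Of the carriers of ornithine and other amino acids, 3 of 4 tested fell from light to dense and none rose, against 39.6% lower and 22.3% higher over all genes, while the fourth, Slc25a29, differed by 0.39 (adjusted p = 0.336) and passed under quantile normalization (1.07, adjusted p = 0.0198). Slc25a15, the ornithine carrier of the urea cycle, was highest in fraction 5 (684 and 667 TPM) and varied less elsewhere, with a median of 348 TPM in gradient 1 and 352 in gradient 2. It fell by 0.65 ± 0.19 (SE, adjusted p = 0.0249), by 0.43 in gradient 1 and by 0.87 in gradient 2. The call was lost when fractions of gradient 2 were shifted by 1 toward the dense end (adjusted p = 0.120). Slc25a44, a carrier of branched-chain amino acids, fell by 1.72 ± 0.17 (SE, adjusted p = 0.000681), from 48.4 to 139 TPM in the light to 23.1 to 31.1 TPM in the dense zone. Slc25a38, which brings glycine in for heme synthesis, was highest in fraction 8 (64.4 and 58.3 TPM) and fell by 1.11 ± 0.19 (SE, adjusted p = 0.00416). Slc25a15 and Slc25a13 serve the same urea cycle, and their differences had opposite signs.

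Slc25a20, which carries acylcarnitines inward for fatty acid oxidation, ran from 71.8 (fraction 6) to 330 TPM (fraction 17) in gradient 1 and from 62.1 (fraction 6) to 231 TPM (fraction 17) in gradient 2. Dense libraries (198 to 330 TPM) were all above light ones (62.1 to 114). It rose by 1.52 ± 0.26 (SE, adjusted p = 0.00380) from light to dense and by 0.93 ± 0.26 (adjusted p = 0.0461) from middle to dense. The latter call was lost under 4 of the alternatives (no filter, contiguous zones and both shifts of gradient 2).

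Of the 9 carriers of nucleotides and cofactors, 4 fell (44.4%) and none rose from light to dense, against 39.6% lower and 22.3% higher over all genes, and 5 fell (55.6%) and none rose from middle to dense, against 22.5% lower and 4.79% higher. Under quantile normalization 2 of the 9 fell from middle to dense (22.2%), against 13.7% of all genes, and the calls of Slc25a51 (adjusted p = 0.0760), Slc25a32 (0.0909) and Slc25a36 (0.0986) were lost. Slc25a51, which carries NAD, peaked at fraction 5 in both gradients (101 and 93.8 TPM, 3.57 and 3.20 times its mean). Its light libraries (49.2 to 101 TPM), middle libraries (11.5 to 35.0) and dense libraries (6.45 to 10.8) did not overlap, and it fell by 2.93 ± 0.22 (SE, adjusted p = 0.000370) from light to dense. Slc25a16, a carrier linked to coenzyme A, was high from fraction 5 to fraction 8 (highest 135 and 118 TPM) and fell by 1.65 ± 0.21 (SE, adjusted p = 0.00714) from middle to dense. Slc25a33, a pyrimidine nucleotide carrier, peaked at fraction 10 in both gradients (64.7 and 39.7 TPM) and fell by 1.56 ± 0.34 (SE, adjusted p = 0.0220) from middle to dense. Slc25a32, the folate and FAD carrier, fell by 0.88 ± 0.20 (SE, adjusted p = 0.0107) from light to dense, and by 0.58 with an adjusted p of 0.0633 under quantile normalization.

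Slc25a17 stood apart in this list. Its protein lies in the peroxisomal membrane, and its RNA was lowest in the middle zone, with zone means of 28.2, 22.9 and 33.5 TPM in gradient 1 and 33.3, 28.0 and 47.7 TPM in gradient 2. The middle to dense difference of 0.64 did not pass (adjusted p = 0.0974) but did with the block (adjusted p = 0.00642). Slc25a42, a coenzyme A carrier, had means of 91.5 and 45.3 TPM in the 2 gradients, and its light to dense difference of -0.99 did not pass (adjusted p = 0.104) but did with the block (adjusted p = 0.000667). Slc25a26, which carries S-adenosylmethionine, lay under 15 TPM everywhere and passed in no comparison, while its light to middle rise of 0.64 passed under quantile normalization (adjusted p = 0.0278). With the block it passed from light to middle (0.47, adjusted p = 0.0219) and from middle to dense (-0.69, adjusted p = 0.00839).

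All 4 carriers of iron and glutathione fell from light to dense, a direction shared by 39.6% of all genes. Slc25a39, which brings glutathione into mitochondria, was the third most abundant member and ran from 167 (fraction 19) to 1292 TPM (fraction 8) in gradient 1, with a median of 361, and from 140 (fraction 22) to 1429 TPM (fraction 8) in gradient 2, with a median of 291. It fell by 2.31 ± 0.15 (SE, adjusted p = 0.000305), by 2.31 in each gradient, and all dense libraries (144 to 213.5 TPM) lay under all light ones (642 to 1329). Its relative Slc25a40 was found at 2.40 and 2.22 TPM, and its fall of 0.65 ± 0.22 (SE, adjusted p = 0.0402) was lost under 4 alternatives, among them quantile normalization (adjusted p = 0.956).

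Slc25a37 (mitoferrin 1), the iron carrier of developing red cells, peaked at fraction 5 in both gradients (38.1 and 51.3 TPM) and fell by 2.85 ± 0.37 (SE, adjusted p = 0.00142), from 15.8 to 51.3 TPM in the light to 2.31 to 4.77 TPM in the dense zone. Slc25a28 (mitoferrin 2), the more widely expressed form, peaked at fraction 7 (38.0 TPM) and fraction 8 (42.2 TPM) and fell by 1.07 ± 0.17 (SE, adjusted p = 0.00326). Of the red cell list, 3 of 5 genes were in the tables: Hba-a1 (alpha globin) had zone means of 387.5, 290.5 and 79.9 TPM in gradient 1 and 290, 198 and 66.3 TPM in gradient 2, Hba-a2 reached 16.3 TPM at most, and Alas2 (heme synthesis) had 4.07, 4.80 and 6.57 TPM and 4.98, 8.36 and 10.4 TPM. The list's summed level ran from 73.5 to 520 TPM in gradient 1 and from 53.4 to 633 TPM in gradient 2. The part of red cells in the Slc25a37 result was not tested.

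Among the uncoupling proteins and their relatives, Slc25a30 fell by 1.45 ± 0.17 (SE, adjusted p = 0.00112) from light to dense and Slc25a14 rose by 0.74 ± 0.21 (SE, adjusted p = 0.0334) from light to middle, a call lost under 4 alternatives. Ucp2, whose RNA is rich in macrophages, peaked at fraction 9 in both gradients (145 and 97.7 TPM) with means of 69.8 and 35.7 TPM. It ranged from 40.8 to 103 TPM in the light, 27.4 to 118 in the middle and 14.7 to 51.0 in the dense zone, and its light to dense difference of -1.0 did not pass (adjusted p = 0.0982) but did with the block (adjusted p = 0.00305). The Kupffer cell list (7 of 7 genes measured) summed to 163, 52.6 and 47.8 TPM in the light, middle and dense zones of gradient 1 and to 154, 53.6 and 57.3 TPM in gradient 2, with Cd5l and Vsig4 highest in the light zone. The Kupffer sum was highest in fraction 6 of gradient 1 and fraction 5 of gradient 2, and its part in the Ucp2 result was not tested.

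The 3 members of the outer membrane all fell from the middle to the dense zone, as did 22.5% of all genes. Mtch2, an insertase of the outer membrane, peaked at fraction 12 in both gradients (242 and 245 TPM), and its light (67.1 to 110.5 TPM), middle (198 to 245) and dense libraries (113.5 to 175.5) did not overlap. It rose by 1.31 ± 0.16 (SE, adjusted p = 0.00248) from light to middle and fell by 0.69 ± 0.16 (adjusted p = 0.0289) from middle to dense, a call lost under quantile normalization and under both shifts of gradient 2. Mtch1, its relative, peaked earlier, at fraction 9 (194 TPM) in gradient 1 and fraction 11 (169 TPM) in gradient 2. Mtch1 rose by 0.98 ± 0.16 (SE, adjusted p = 0.00515) from light to middle and fell by 1.24 ± 0.16 (adjusted p = 0.00715) from middle to dense. Its rise did not pass with gradient 2 shifted by 1 fraction toward the light end (adjusted p = 0.0525). Slc25a46, a member with a part in mitochondrial shape, was highest in fraction 8 (54.0 TPM) and fraction 9 (37.3 TPM) and fell by 1.54 ± 0.28 (SE, adjusted p = 0.0136) from middle to dense.

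Slc25a47, a carrier found almost only in liver, was the most abundant member of gradient 1. It rose from 322 TPM (fraction 4) to 1197 TPM (fraction 11) in gradient 1 and from 217 TPM (fraction 3) to 906 TPM (fraction 14) in gradient 2. From fraction 14 on it lay between 945 and 1104 TPM in gradient 1 and declined to 536 TPM (fraction 22) in gradient 2. Its light to middle rise was 1.21 ± 0.32 (SE, adjusted p = 0.0243) and its middle to dense difference -0.12 (adjusted p = 0.830). Light and middle libraries overlapped (228 to 706 and 617 to 1197 TPM), and under quantile normalization the rise did not pass (0.86, adjusted p = 0.0905). Slc25a34, Slc25a45 and Slc25a48, whose substrates are less settled, were each under 35 TPM in every library and passed in no comparison. Slc25a34 had a light to dense difference of -0.91 (adjusted p = 0.114), which passed with the block (adjusted p = 0.00123) and without fraction 4 (adjusted p = 0.0477). Slc25a48 had 7.26 and 14.4 TPM in the 2 gradients and opposite signs from light to dense (-0.54 and 0.43).

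Related carriers were compared within each pair as the log2 ratio of their mean TPM in a zone of a gradient, with no pseudocount. Slc25a23 over Slc25a25 fell from 3.23 in the light to -0.74 in the dense zone of gradient 1 and from 3.44 to -0.72 in gradient 2, a change of -4.06 ± 0.13 (SD, n = 2), so the more abundant member of the pair differed between the ends of the gradient. Slc25a28 over Slc25a37 rose from -0.09 to 1.97 and from -0.46 to 1.60, a change of 2.05 and 2.06 in the 2 gradients. Their light libraries overlapped (15.5 to 38.0 and 15.8 to 51.3 TPM), so their order in the light zone is unsettled. Slc25a33 over Slc25a36 changed by 2.19 in both gradients, with Slc25a36 going from 2.19 to 0.230 TPM in gradient 1 and from 2.79 to 0.347 TPM in gradient 2. On the log2(TPM + 1) scale, which damps changes at such levels, the same change was 0.54 ± 0.29. Slc25a39 over Slc25a40, the latter at 1.64 to 3.92 TPM by zone mean, changed by -1.40 ± 0.40, Slc25a4 over Slc25a5 by -0.86 ± 0.31 and Mtch1 over Mtch2 by -0.98 ± 0.24, each with the same sign in both gradients. Slc25a12 over Slc25a13 changed by -0.46 in gradient 1 and 0.10 in gradient 2 (-0.18 ± 0.40), within the spread between gradients. These ratios are given as a description, and none was tested.

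**Figure D4:**
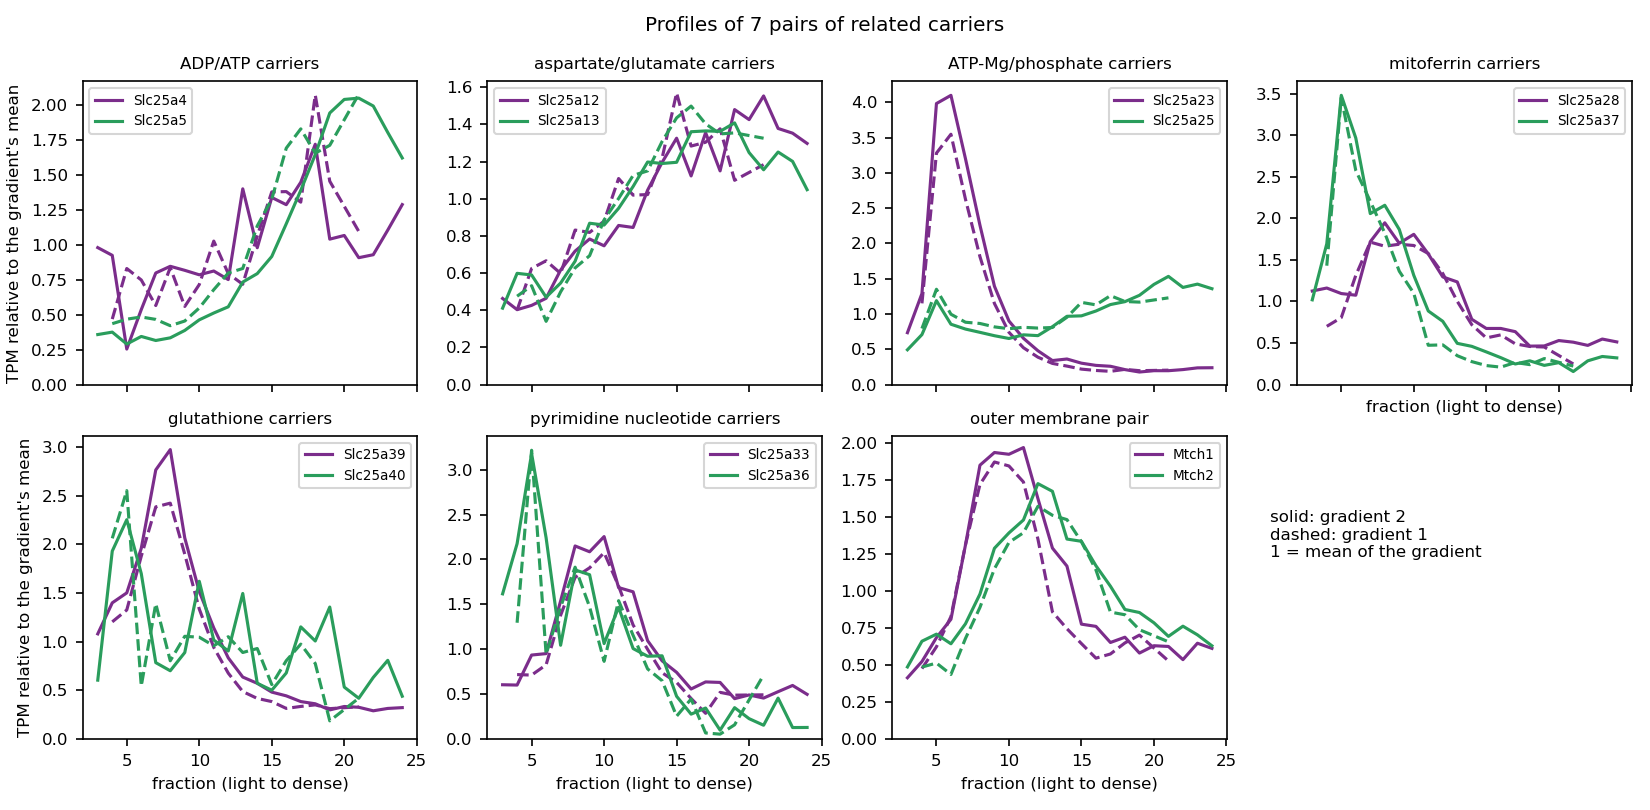
TPM relative to the mean of the gradient, by fraction from light to dense, for both members of 7 pairs of related carriers (solid lines gradient 2, dashed lines gradient 1). The lines of Slc25a12 and Slc25a13 run together, with R of 0.927 and 0.899 between them, while those of Slc25a23 and Slc25a25 cross between fractions 9 and 11, with R of -0.01 and -0.31.

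The values of 5 other lists of genes stand beside those of the carriers and of all genes, of which 23.5% rose and 24.1% fell from light to middle, and 22.3% rose and 39.6% fell from light to dense. Of 36 subunits of complex I, the first enzyme of the respiratory chain, 34 (94.4%) rose from light to middle and none fell, with a median difference of 2.23, against 11 of 41 carriers with a median of 0.29. Mitochondrial ribosomal proteins were similar to complex I, with 70 of 78 (89.7%) higher and none lower, and a median of 1.64. From middle to dense, 22 complex I subunits (61.1%) fell and 3 rose, and 49 mitochondrial ribosomal proteins (62.8%) fell and 6 rose. Over all genes 22.5% fell and 4.79% rose there. Of 23 other mitochondrial transport proteins, 12 rose from light to middle, among them the porins Vdac2 and Vdac3 and the carnitine enzyme Cpt2. Slc8b1 was the 1 that fell (-1.36, adjusted p = 0.0129), and the porin Vdac1 did not pass (-0.19, adjusted p = 0.481). Of 15 proteins that import carriers into mitochondria (TOM subunits, the small TIM chaperones, Timm22 and Agk), 4 rose (26.7%) and 1 fell, while 9 fell (60%) and 3 rose (20%) from light to dense. Of 47 plasma membrane carriers of organic ions, sugars and amino acids, 34 (72.3%) fell from light to middle and 1 rose, and 37 (78.7%) fell from light to dense and none rose. Under quantile normalization the genes that fell from light to middle numbered 4 in the list of other mitochondrial transport proteins, 4 in the import list and 2 among mitochondrial ribosomal proteins. Differences between these shares and those of the SLC25 family were not tested. The spread of the light to dense difference over genes (SD) was 1.34 for the SLC25 family, 1.36 for the import list, 1.36 for the other mitochondrial transport proteins, 1.19 for complex I, 1.17 for mitochondrial ribosomal proteins and 0.81 for the plasma membrane carriers, beside 1.40 for all genes.

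**Figure D5:**
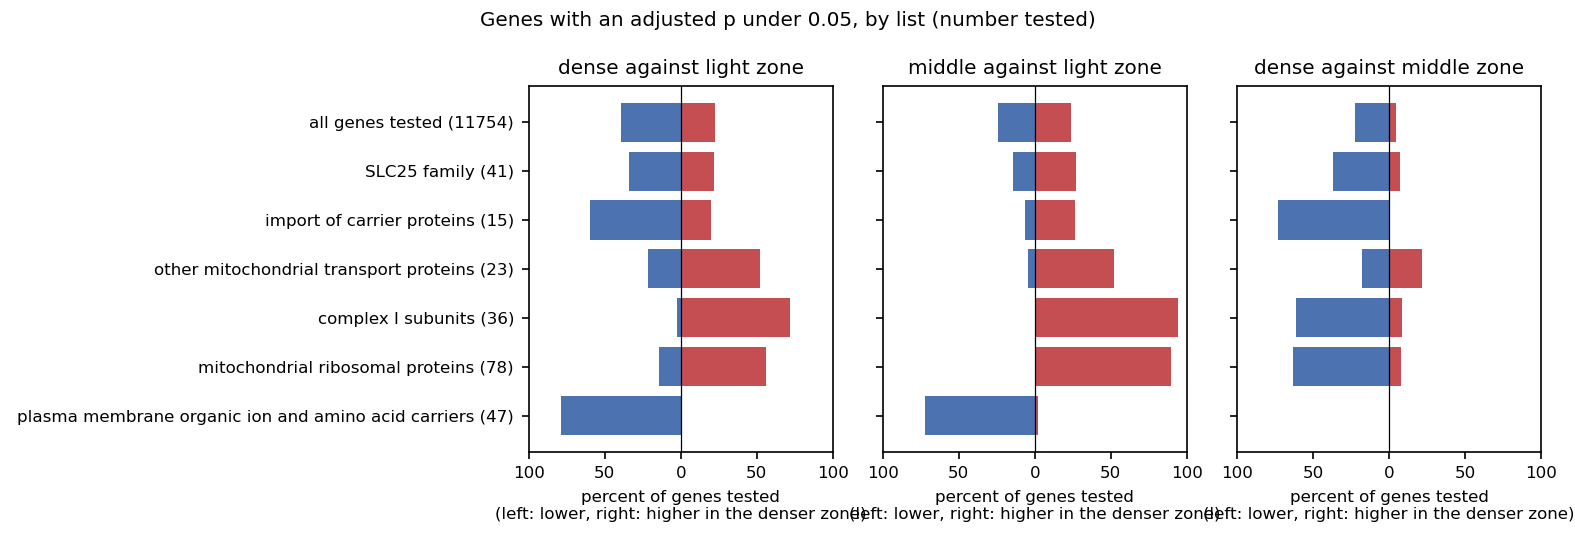
Percent of the genes tested in each list (rows, number tested in parentheses) that were higher (right of 0) or lower (left of 0) in the denser zone of each comparison, by limma with an adjusted p under 0.05. In the light to middle comparison 94.4% of complex I subunits and 26.8% of the SLC25 family were higher, while 72.3% of the plasma membrane carriers were lower.

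Transcript length was set beside the centers as a description across genes, which are not independent replicates. Among the 41 members, longer transcripts had lighter centers (Pearson's R = -0.41 for log2 length and Spearman's rho = -0.39), and the length outside the coding sequence gave about the same values (-0.43 and -0.41). Over the 10799 of 11754 genes with a matched length (91.9%), the values were -0.15 and -0.16 for the transcript and -0.29 and -0.32 for the noncoding length. Coding length, which had a median of 948 bases in the family, gave 0.06 and -0.23 among the members and 0.13 and 0.13 over all genes. Slc25a5 has the shortest transcript of the family, 1240 bases, and the densest center, while Slc25a12 has the longest, 6351 bases, and also lay in the dense part.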

How the data were processed

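Mouse liver RNA was measured in 39 libraries of 2 sucrose gradients. The authors sequenced stranded libraries depleted of ribosomal RNA, with bcl2fastq 2.16.0.10 and Kallisto named in the submitters' processing notes (Kallisto's version is not given in the sources used here), quantified them against RefSeq transcripts of mm10 and kept genes over 1 TPM in 1 or more fractions, which holds in both tables. They deposited 1 table of TPM values by symbol per gradient. TPM holds no counts, so no count model was used and the depth per library is unknown. The number of value columns not matched to a sample was 0.

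Fractions of 1 gradient are not replicates, so log2(TPM + 1) was averaged over 4 fractions per zone (24 libraries) and the 6 zone means were fitted with limma 3.58.1 (R 4.3.3, trend in eBayes), keeping genes that averaged 1 TPM or more over those libraries. Adjusted p refers to Benjamini-Hochberg over all genes, with a threshold of 0.05. The gradients pair the zones, since the zones of each were spun together: deviations from the zone means correlated across genes between light and middle (0.665), light and dense (0.540) and middle and dense zones (0.798). The members and lists were chosen with earlier results of these data known. Members averaging 50 TPM or more in each gradient, the 3 largest rises and falls of each comparison among called members over 10 TPM, and paralog pairs are given with values. Further members named in the account of a role were chosen after their values were seen. Gene models, coordinates and sequences are from GENCODE M21 (GRCm38). Alternatives were other scalings, a pseudocount of 0.1, other filters (none, 10 TPM), zone borders, shifts of fraction numbers, a replicate block and, chosen after seeing the data, a light zone without fraction 4. Protein data were not used here, and the values of 1 tested member, which is in the counts, are not reported here. The other software was Matplotlib 3.10.9, SciPy 1.17.1, pandas 2.3.3, NumPy 2.4.6 and Python 3.11.15.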

Additional observations from a re-analysis of the deposited data

How the results depend on the processing

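Of the member calls, 17 of 23 (light to dense), 8 of 17 (light to middle) and 11 of 18 (middle to dense) held under each alternative run for them, and no called member changed direction there; the filter of 10 TPM left out members under it, and leaving out fraction 4 bears only on comparisons with the light zone. With the replicate block, which pairs the zones of a gradient, higher calls moved from 9 to 15, from 11 to 19 and from 3 to 8. Lower calls in the dense against the middle zone moved from 15 to 25. With this block, the shares of all genes called higher were 30.5%, 37.2% and 14.1%, and 39.3% were lower in the dense against the middle zone. With the block fitted to 34 single libraries, the member counts were 15, 22, 11 and 25, and lower calls in the middle against the light zone moved from 6 to 10. That fit takes fractions of 1 gradient as replicates, which they are not, so its counts overstate the precision. Its shares of all genes are not given here. No member call was lost with the block. Shifting gradient 2 by 1 fraction toward the dense end left 2 lower calls in the middle against the light zone, and 1 higher call in the dense against the middle zone, as did the opposite shift (1), while quantile normalization gave 5. The cause was not tested, and shares of all genes under the shifts are not given here, so those counts have no background beside them.

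The light to dense median (-0.26) became 0.03 under quantile normalization, a reversal, -0.32 without the 50 most abundant genes, -0.38 with contiguous zones (fractions 4–8, 9–14 and 15–19), -0.14 and -0.49 with gradient 2 shifted toward the dense and light end, and -0.40 without fraction 4. The light to middle median (0.29) became 0.18, 0.16, 0.08, 0.44, 0.06 and 0.12 under the same alternatives, and 0.20 without a filter. The middle to dense median (-0.69) became -0.48, -0.65, -0.62, -0.71 and -0.73 under the first 5, -0.78 with a pseudocount of 0.1, -0.62 without a filter and -0.74 over 10 TPM. Leaving out either gradient gave medians from -0.28 to -0.26, from 0.24 to 0.32 and from -0.71 to -0.70. The median R between gradients (0.925) was 0.817 and 0.849 with shifts toward the dense and light end, and the median pairwise R (0.218) was 0.0829 in gradient 1. Precision rests on 2 gradients, and depth is unknown.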
